A study of Mus musculus with 2 samples.

Results

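*Fabp3*, *Fabp5*, *Fabp7*, *Crabp1* and *Crabp2* encode small intracellular proteins that bind fatty acids or retinoic acid, and they were chosen by their symbols in the gene list of the deposited counts. They are 5 of 31053 listed genes, of which 21837 had at least 1 UMI (unique molecular identifier, a tag that counts each captured RNA molecule once) in either library. Single-cell RNA-seq was performed on mouse embryonic eyecups at E13.5, which contained retina, lens and blood. The study compared 1 control library with 1 library of *Six3* and *Six6* double knockout (DKO) eyecups, to learn which genes the 2 transcription factors jointly control in retinal progenitor cells.

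The control eyecups were Six3+/-;Six6+/-, so they carried 1 lost copy of each gene and were not wild type. The DKO eyecups were Six3F/F;Six6-/-;a-Cre, in which *Six6* was lost in the germline and *Six3* was removed by a Cre that acts in the peripheral retina. DKO retinas are therefore mosaic, with *Six3* kept in central cells. The embryos came from Six3F/F;a-Cre males mated to Six3F/F;Six6+/- females, and the sources differ on the males, which are Six6-/- in the design text and Six6+/- in the study's methods. The paper traces the null *Six3* allele of the control, an excised floxed allele, to leaky a-Cre activity in germ cells. The other allele is labelled *Six3*+, although both parents are given as Six3F/F. The genotypes used here are those of the sample labels. DKO eyecups were recognised by rosettes with GFP and control eyecups by the lack of GFP, with an embryo per genotype as the design text describes them. The counts list no Cre feature, so cells that had expressed Cre were not separated by it.

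Fatty acids and retinoids dissolve poorly in water, and cells carry them on intracellular lipid-binding proteins that fold as a barrel around their ligand. FABP3 is the heart type, FABP5 the epidermal type and FABP7 the brain type fatty acid binding protein, the last of these known from radial glia and other neural progenitor cells. CRABP1 holds retinoic acid in the cytosol, and CRABP2 hands it to the retinoic acid receptors in the nucleus. The embryonic eye makes its own retinoic acid, with different aldehyde dehydrogenases in the dorsal and ventral retina.

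In mm10 with GENCODE M21 annotation, all 5 genes lie on the plus strand and have 4 exons each. *Fabp3* (ENSMUSG00000028773) is at chr4:130308595-130315463, *Fabp5* (ENSMUSG00000027533) at chr3:10012548-10016607 and *Fabp7* (ENSMUSG00000019874) at chr10:57784881-57788450. *Crabp1* (ENSMUSG00000032291) is at chr9:54764748-54773110 and *Crabp2* (ENSMUSG00000004885) at chr3:87948666-87953376. Their coding sequences are 396 to 414 bases long. *Crabp1* and *Crabp2* were the most alike pair, with 70.8% identical coding bases, followed by *Fabp3* and *Fabp7* with 66.7%, and the other 8 pairs shared 48.9% to 57.8%. Over the last 400 bases, where the 3′ reads of this method fall, no member matched another gene at 95% identity or more apart from *Fabp3*, which shared 162 bases at 98.8% with its processed pseudogene *Fabp3-ps1*. That pseudogene is not in the gene list. *Fabp3* also overlaps *Zcchc17* and *Gm10570* on the opposite strand.

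The 5′ flanks of *Fabp7* and *Crabp1* are shown because these genes differed in opposite directions between DKO and control naïve-like progenitor cells. The RefSeq promoter table (GRCm38.p6) held 3 of the 5 members (*Fabp3*, *Fabp7* and *Crabp1*), and each window ends at the last base before the GENCODE gene. The capitals mark the nuclear receptor half-site AGGTCA, here read on the minus strand, and the CCAAT box, also read on the minus strand.
Fabp7, chr10:57784673-57784880, plus strand: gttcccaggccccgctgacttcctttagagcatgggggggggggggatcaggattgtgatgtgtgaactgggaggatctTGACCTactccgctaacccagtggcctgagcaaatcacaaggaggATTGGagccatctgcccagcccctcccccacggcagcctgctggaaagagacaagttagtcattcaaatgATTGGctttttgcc
Crabp1, chr9:54764498-54764747, plus strand: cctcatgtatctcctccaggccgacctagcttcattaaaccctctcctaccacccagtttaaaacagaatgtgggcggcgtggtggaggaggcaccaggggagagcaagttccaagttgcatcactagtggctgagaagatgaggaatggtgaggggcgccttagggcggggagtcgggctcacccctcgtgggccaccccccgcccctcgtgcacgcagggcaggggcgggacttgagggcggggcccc

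Both strands were searched for 5 sets of letters that do not overlap in these windows: TGATAC (the core bound by Six3 and its relatives), the half-site AGGTCA, the TATA box as TATAAA, the CCAAT box, and a homeodomain core as TAATTA. The *Fabp7* window held AGGTCA 1 time and CCAAT 2 times and none of the others, and the *Crabp1* window held none of the 5. Of 32851 RefSeq promoters, 11.8% held AGGTCA and 30.1% held CCAAT in a window of the *Fabp7* length of 208 bases, and 3.76% held TGATAC. These are matches of letters and not binding sites.

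The control library had 10315 cells and 85589515 UMIs, and the DKO library 12672 cells and 85173276 UMIs. After the filters, 9822 control cells with a median of 7620 UMIs and 12146 DKO cells with a median of 5879 UMIs remained, and 20 of their cell barcodes occurred in both libraries. A level is the gene's UMIs summed over a class and divided by all UMIs of that class, per 1000000 (CPM), and a ratio is the DKO level over the control level on a log2 scale. The ranges in parentheses are 95% intervals that cover counting error only. With 1 library per genotype there is no replicate check of any difference below, and the genotypes were compared without a test.

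Clusters were named from marker genes with the word like, and 9 classes had at least 50 cells in each library. Naïve-like progenitor cells (3673 control and 3119 DKO cells) had *Sfrp2* and *Ccnd1* among their markers, and neurogenic-like progenitor cells (1347 and 1705) had *Atoh7*. The others were ganglion-like (920 and 2096), amacrine- or horizontal-like (126 and 193), photoreceptor-like (95 and 119), pigment epithelium-like (697 and 1024), lens-like (214 and 256), macrophage-like (55 and 162) and red blood-like cells (1073 and 552). The markers of the ciliary margin, the rim of the retina, were also above the other cells in the pigment epithelium-like class. In its control cells the naïve markers summed to 3109 CPM, pigment epithelium markers to 732 CPM and ciliary margin markers to 698 CPM. The class is therefore not pigment epithelium alone. Clusters 10 and 13 held 603 and 450 DKO cells and no control cells, and neither was named. None of the 5 genes was used for clustering or naming.

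*Six6* was at 362.6 CPM in control and 47.0 CPM in DKO naïve-like cells, and its interval lay below 0 in 9 of 9 classes. *Six3* was at 301.7 CPM in control and 237.5 CPM in DKO naïve-like cells. UMIs come from the 3′ end of the mRNA, away from the removed parts of both genes, so these levels do not read the deletions themselves.

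The class in which each gene was highest in control eyecups differed between the members. *Fabp5* and *Crabp1* were highest in ganglion-like cells and *Fabp7* in photoreceptor-like cells. *Fabp3* was highest in pigment epithelium-like cells and *Crabp2* in naïve-like progenitor cells. In DKO eyecups the same classes led, apart from *Crabp2*, which was at 121 CPM in naïve-like and 122 CPM in pigment epithelium-like cells. The plot of levels by class shows both libraries.

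**Figure D1:**
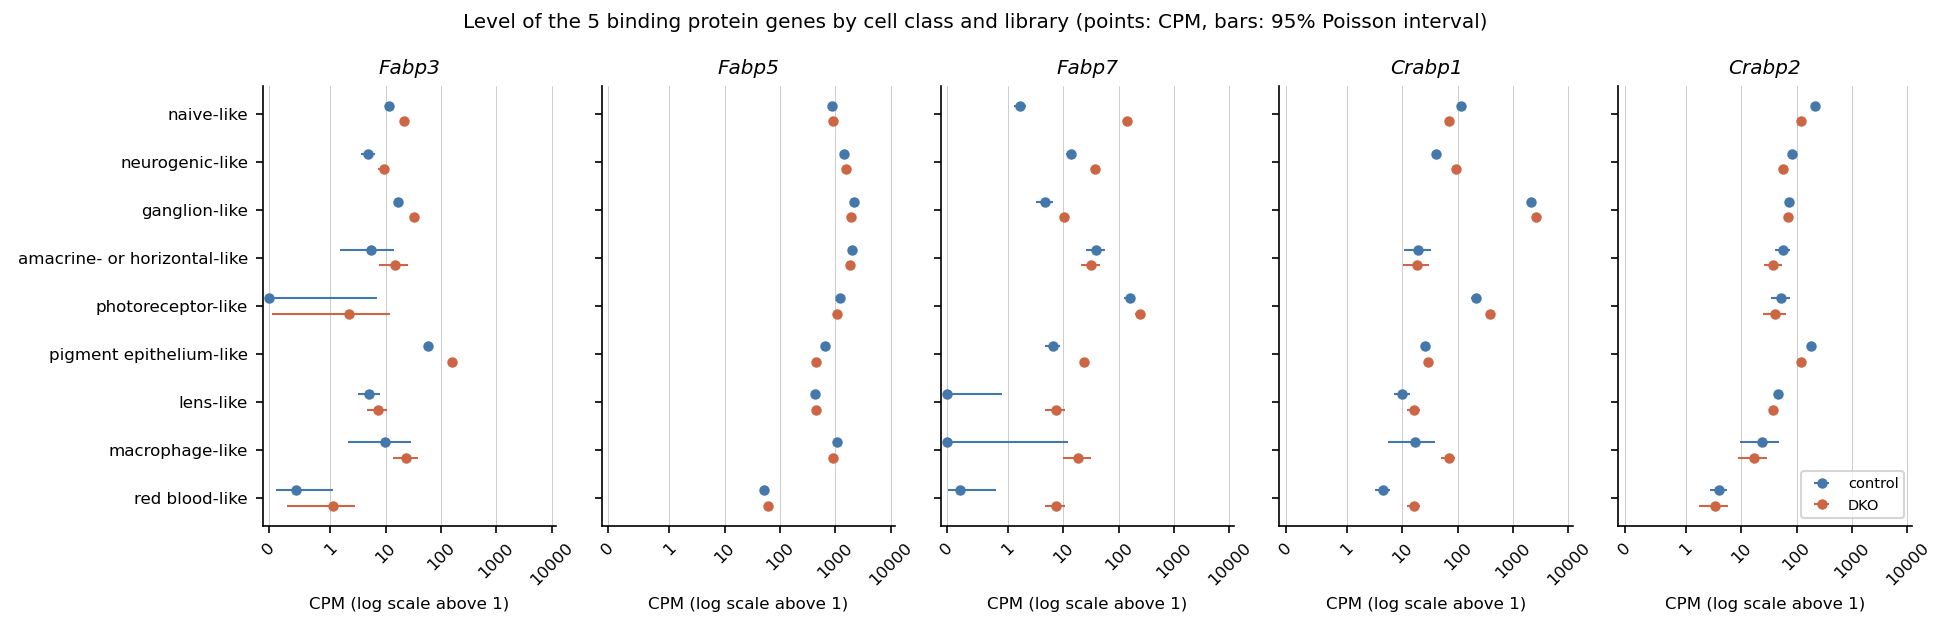
Level in CPM (horizontal axis, log scale above 1) of each gene (panels) in the 9 cell classes (vertical axis), for control (blue) and DKO (orange) libraries. Points are the summed level of 1 library and bars the 95% Poisson interval. *Fabp7* in naïve-like cells moved from 1.65 to 138 CPM, while *Fabp5* stayed between 440.3 and 2224 CPM in every class other than red blood-like cells.

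Of the fatty acid binding proteins, *Fabp7* showed the widest gap between the genotypes. In naïve-like cells it had 59 UMIs in control and 3839 UMIs in DKO, or 1.65 CPM (1.25 to 2.12) and 138 CPM (134 to 142). The DKO level was thus 83.8-fold higher, a log2 ratio of 6.39 (6.02 to 6.78), and the intervals of the libraries were far apart. The 3 naïve-like clusters all shared the direction, with 1.69 against 189.9 CPM in cluster 0, 2.01 against 38.7 CPM in cluster 1 and 0.587 against 51.3 CPM in cluster 9. The ratio was 4.41 at clustering resolution 1 and 2.01 with the libraries merged without integration, where 1162 DKO cells and 1 control cell formed a cluster led by *Fabp7* outside the class.

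Among the 5 members, *Fabp7* alone differed by 2-fold or more in naïve-like cells. *Fabp7* and *Fabp3* were counted there through their DKO levels alone, as their control levels were under the 20 CPM needed. In all, 1.07% of the 6447 genes with enough UMIs there were at least 2-fold higher in DKO and 0.434% at least 2-fold lower, and the median log2 ratio was 0.09 over the members and 0.03 over all these genes.

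The *Fabp7* RNA of DKO naïve-like cells sat in few of them. Of 3119 cells, 576 had a UMI and 118 (3.78%, 3.14% to 4.51%) had 10 or more, and these 118 held 69.6% of the UMIs. The highest DKO cell had 81 UMIs and the highest control cell 4. With each cell thinned at random to 2000 UMIs, the share of cells with a *Fabp7* UMI was 0.330% in control and 9.56% in DKO, and without thinning it was 1.42% and 18.5%. Red blood-like cells, which should lack the gene, gave thinned shares of 0.0942% and 0.371% at median depths of 8454 and 6337 UMIs, against 8475 and 7695 UMIs for naïve-like cells. The share in DKO naïve-like cells was far above this background.

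In control eyecups *Fabp7* was highest in photoreceptor-like cells at 157 CPM (125 to 194), then in amacrine- or horizontal-like cells at 38.8 (25.8 to 56.1) and neurogenic-like cells at 13.497 (11.3 to 15.996). Pigment epithelium-like cells at 6.498 CPM (4.72 to 8.72) and ganglion-like cells at 4.62 (3.23 to 6.39) did not differ beyond their intervals. Naïve-like cells came last among the retinal classes. In DKO eyecups photoreceptor-like cells still led the 9 classes with 237 CPM (195 to 285), and naïve-like cells came next. Unnamed cluster 13 was above both, at 747 CPM.

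The other classes with a difference in *Fabp7* beyond counting error also had more of it in DKO. Neurogenic-like cells went from 13.497 to 36.7 CPM (log2 1.44, 1.15 to 1.74) and pigment epithelium-like cells from 6.498 to 23.0 CPM (log2 1.83, 1.35 to 2.33). In the latter class 5 of 1024 DKO cells held 51% of the *Fabp7* UMIs. Ganglion-like cells had 4.62 and 10.1 CPM (log2 1.13, 0.60 to 1.70, but -0.32 in the 86 Six3-low DKO cells defined below), and photoreceptor-like cells 157 and 237 CPM (log2 0.60, 0.18 to 1.02). Amacrine- or horizontal-like cells had 38.8 and 31.5 CPM, and the interval of their ratio (-1.13 to 0.52) spanned 0. Lens-like cells had 0 UMIs in control and 23 in DKO, 12 of them in 1 cell, and red blood-like cells had 2 and 26 UMIs, 23 of the latter in 1 cell. The DKO level of both was 7.20 CPM, but it rested largely on 1 cell in each class, so no difference is read from either. Macrophage-like cells had 0 and 13 UMIs, at least 1.82-fold higher against a floor of 3 UMIs over the group.

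As a result, the cells that supplied *Fabp7* RNA were not the same classes in both libraries. In control, 31.6% of its 421 UMIs came from neurogenic-like, 19.95% from photoreceptor-like and 14.0% from naïve-like cells. In DKO, 52.4% of its 7333 UMIs came from naïve-like cells and 29.3% from cluster 13, which held 3.70% of the DKO cells.

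*Fabp3* was highest in both libraries in the pigment epithelium-like class, which also held the ciliary margin markers. It was at 58.8 CPM (53.1 to 64.9) there in control, followed by ganglion-like cells at 16.9 (14.2 to 20.1) and naïve-like cells at 11.6 (10.5 to 12.8). Macrophage-like, amacrine- or horizontal-like, lens-like and neurogenic-like cells lay between 4.87 and 9.95 CPM with overlapping intervals. Control photoreceptor-like cells had 0 UMIs, which allows a level of up to 5.59 CPM. The paper counts *Fabp3* among its ciliary margin markers. It also reports more *Fabp3* in Cre-positive DKO cells than in control cells of a naïve progenitor cluster that holds the ciliary margin cells. Its cells and its measure differ from those used here.

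In DKO pigment epithelium-like cells *Fabp3* reached 158 CPM (149 to 166), a log2 ratio of 1.42 (1.26 to 1.59). It turned to -1.70 when the libraries were merged without integration, where the class held other cells, 38 control and 1409 DKO. The thinned share of cells with a UMI was 8.39% in control and 22.8% in DKO, against 0.188% and 0.186% of red blood-like cells, and 28.4% and 53.9% without thinning. *Fabp3* and *Fabp7* were the members at least 2-fold higher in this class, 2 of 5 (the 5 cells above carried 51% of the *Fabp7* UMIs), where 1.87% of 6593 genes were at least 2-fold higher in DKO and 0.561% lower. *Fabp7* was counted in this class through its DKO level alone, as its control level was under the 20 CPM needed. The class itself differed in its markers. The summed level of the 6 ciliary margin markers was 698 CPM in control and 2067 CPM in DKO, that of the 7 pigment epithelium markers 732 and 1625 CPM, and that of the 8 naïve markers 3109 and 1623 CPM. The part of these shifts in the difference of *Fabp3* was not tested.

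Other classes had more *Fabp3* in DKO at lower levels. The log2 ratio was 0.91 (0.72 to 1.09) in naïve-like cells (11.6 and 21.7 CPM), 0.93 (0.40 to 1.47) in neurogenic-like cells (4.87 and 9.29 CPM) and 0.97 (0.69 to 1.26) in ganglion-like cells (16.9 and 33.3 CPM). In the remaining 4 classes with a ratio the interval spanned 0. In naïve-like cells the difference depended on the clustering, with a log2 ratio of -0.03 at resolution 1 and 0.08 with the libraries merged without integration. Pigment epithelium markers summed to 16.9 CPM in control and 93.4 CPM in DKO naïve-like cells, and ciliary margin markers to 217 and 432 CPM, and their part in the *Fabp3* difference was not tested.

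*Fabp5* was seen in most cells of every retinal class. At least 1 UMI was present in 98.9% of control and 98.2% of DKO naïve-like cells without thinning, and in 80.1% and 81.0% after it, against 7.16% and 8.91% of red blood-like cells. The lowest retinal share was in DKO pigment epithelium-like cells, at 84.2% without thinning and 51.3% after it. Its control level was highest in ganglion-like cells at 2224 CPM (2191 to 2257), then amacrine- or horizontal-like cells at 1992 (1890 to 2097) and neurogenic-like cells at 1429.6 (1406 to 1453). Photoreceptor-like cells at 1229 CPM (1137 to 1326) and macrophage-like cells at 1081 (967 to 1205) overlapped, and naïve-like cells at 866, pigment epithelium-like cells at 648 and lens-like cells at 440.3 CPM followed.

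The genotypes differed little in *Fabp5*. In naïve-like cells it was at 866 CPM (856 to 876) in control and 919.5 CPM (908 to 931) in DKO, a log2 ratio of 0.09 (0.06 to 0.11), and in neurogenic-like cells at 1429.6 and 1558 CPM, 0.12 (0.09 to 0.16), though -0.43 in the 29 neurogenic-like cells of Six3-low DKO subclusters, which are defined below. It was lower in DKO ganglion-like cells, 1918 CPM and a ratio of -0.21 (-0.24 to -0.19). The widest gap was in pigment epithelium-like cells, with 648 and 443 CPM and a ratio of -0.55 (-0.61 to -0.49). That ratio turned to 1.43 when the libraries were merged without integration, where the class held 38 control and 1409 DKO cells. The *Fabp5* ratio was within 2-fold in all 9 classes, from -0.55 to 0.20. In lens-like cells (0.04, -0.06 to 0.14) and red blood-like cells (0.20, -0.04 to 0.44) the interval spanned 0.

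**Figure D2:**
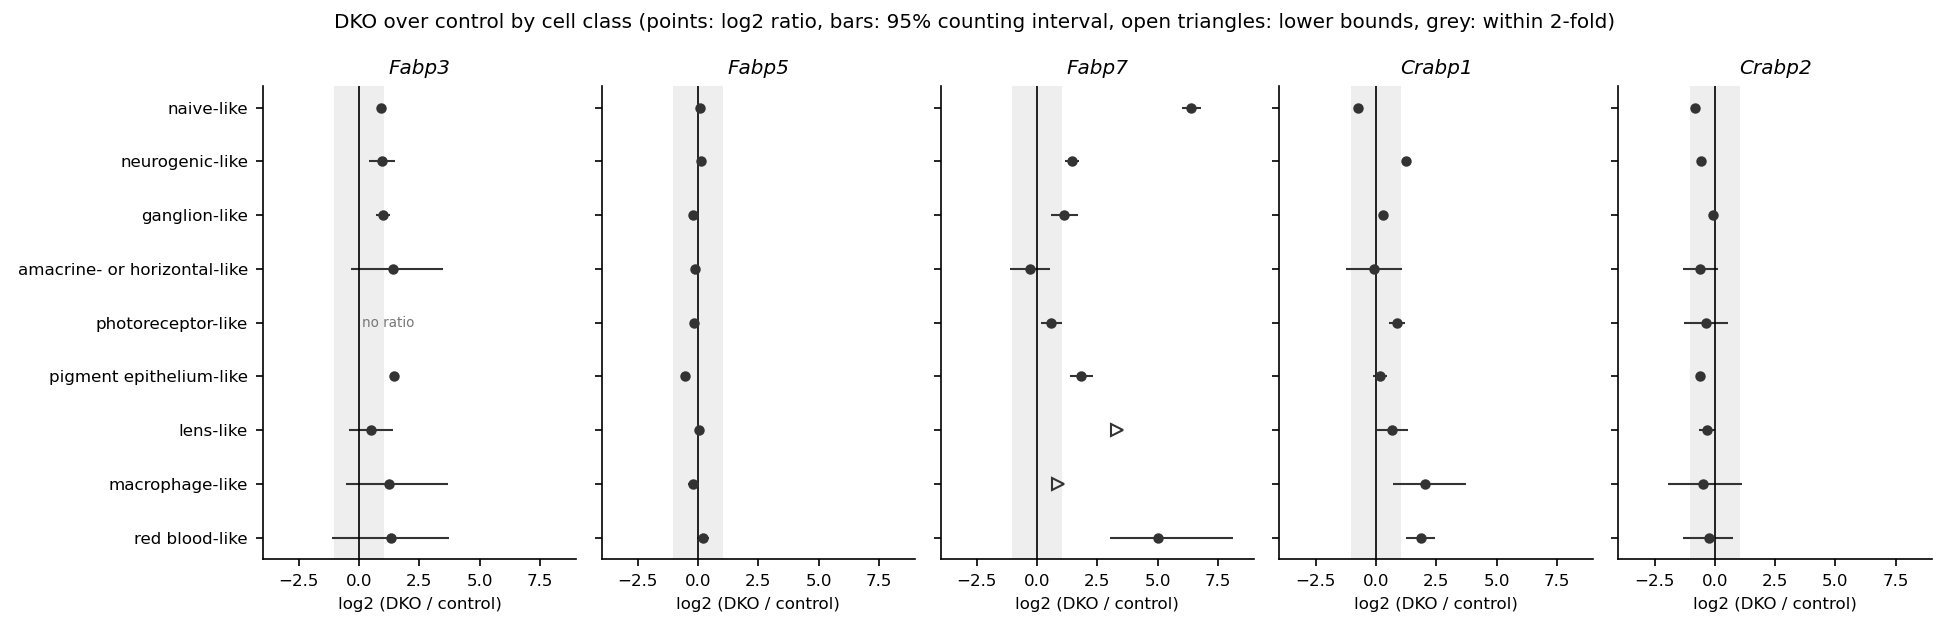
Log2 ratio of DKO over control (horizontal axis) of each gene (panels) in the 9 cell classes (vertical axis). Points are ratios of summed levels, bars their 95% counting intervals, open triangles lower bounds where control had 0 UMIs, and the grey band is within 2-fold. *Crabp2* lies left of 0 in every class, and *Crabp1* lies left of 0 in naïve-like cells (-0.72) and right of 0 in neurogenic-like (1.24) and ganglion-like cells (0.30).

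Of the retinoic acid binding proteins, *Crabp1* was a gene of ganglion-like cells. Its control level there was 2095 CPM (2063 to 2127), and it was lower in photoreceptor-like cells at 214 (177 to 257), naïve-like cells at 115 (112 to 119) and neurogenic-like cells at 40.2 (36.3 to 44.3). Ganglion-like cells supplied 67.9% of its UMIs in control and 83.0% in DKO. They were uneven: 27.7% of control and 32.9% of DKO ganglion-like cells had 10 or more UMIs and held 95.2% and 94.2% of the UMIs of the class, and 1 cell reached 245 and 279 UMIs.

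The 2 clusters of ganglion-like cells went in opposite directions. In cluster 5 *Crabp1* was at 917 CPM (889 to 946) in control and 2429 CPM (2392 to 2467) in DKO, a log2 ratio of 1.41 (1.36 to 1.46). In cluster 6 it was at 3599 CPM (3536 to 3664) and 2718 CPM (2682 to 2754), a ratio of -0.41 (-0.44 to -0.37). The share of cells with 10 or more UMIs followed, from 13.7% to 26.3% in cluster 5 and from 50% to 39.9% in cluster 6. Ganglion-like cells of the genotypes separated under other clusterings, with 96 control and 722 DKO cells in 1 cluster at resolution 1 and 15 control and 1651 DKO cells in 1 cluster of the merged libraries. *Mmd2*, *Fezf1* and *Uncx* were among the 10 leading genes of both of these mostly DKO clusters. *Tac1* was also among those of the first, and *Tbr1*, *Lhx9* and *Rspo3* among those of the second. The paper reports *Tac1* and *Uncx* as raised in its DKO-specific cell population. The part of which cells sit in a cluster was not tested. Over the class the ratio was 0.30 (0.28 to 0.33), with 2586 CPM in DKO, and it turned to -0.21 with the libraries merged without integration and to -0.73 in the 86 Six3-low DKO cells. These 86 cells sat in subclusters mainly of other cells. No member passed 2-fold in either direction among the 4 counted in ganglion-like cells, where 1.66% of 6457 genes were at least 2-fold higher and 0.666% lower.

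In naïve-like cells *Crabp1* was lower in DKO, at 115 CPM (112 to 119) in control and 69.9 CPM (66.8 to 73.1) in DKO, a log2 ratio of -0.72 (-0.80 to -0.65). The thinned share of cells with a UMI was 20.2% in control and 12.4% in DKO, and 50.4% and 33.5% without thinning. Clusters 0 and 1 had ratios of -0.79 and -0.64 and cluster 9 one of -0.25 (-0.46 to -0.04), so the 3 naïve-like clusters had 1 direction. With the libraries merged without integration the ratio of the class turned to 0.16.

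In neurogenic-like cells the direction was the opposite, with 40.2 CPM (36.3 to 44.3) in control and 94.9 CPM (88.6 to 101) in DKO, a log2 ratio of 1.24 (1.07 to 1.41). With the 29 Six3-low DKO cells in place of all 1705 the ratio turned to -0.29 (-1.51 to 0.70). These 29 cells sat in subclusters mainly of other cells, as given below. Here 13 of 1705 DKO cells had 10 or more UMIs and held 42.0% of the class's *Crabp1* UMIs, against 1 of 1347 control cells with 3.28%. The thinned share of cells with a UMI was 6.94% and 9.99%, but 17.8% and 17.2% without thinning, so the shares give no order. Ganglion markers summed to 1386 CPM in control and 1692 CPM in DKO neurogenic-like cells, and red blood-like cells, which should lack *Crabp1*, had 4.46 and 16.1 CPM of it. The part of either in the difference was not tested. *Fabp7* and *Crabp1* were at least 2-fold higher here, 2 of the 4 members counted. Of 6522 genes, 1.98% were at least 2-fold higher and 0.813% lower. *Fabp7* was counted here through its DKO level alone, as its control level was under the 20 CPM needed.

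Photoreceptor-like cells had 214 CPM (177 to 257) of *Crabp1* in control and 391 CPM (336 to 452) in DKO, and 3 of the 119 DKO cells held 72.1% of the DKO UMIs. The thinned share of cells with a UMI went against the level, with 29.5% in control and 20.4% in DKO, and no order is read from it. None of the 3 members counted in this class passed 2-fold, where 0.583% of 1888 genes were at least 2-fold higher and 0.689% lower. In pigment epithelium-like cells *Crabp1* was at 26.1 and 29.3 CPM, and the interval of the ratio (-0.12 to 0.45) spanned 0. Merging without integration turned the ratio of photoreceptor-like cells to -0.93.

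*Crabp2* was a gene of naïve-like and pigment epithelium-like cells. In control it was at 214 CPM (209 to 219) in the first and 185 CPM (175 to 196) in the second, then at 83.5 (77.9 to 89.4) in neurogenic-like and 73.1 (67.3 to 79.4) in ganglion-like cells. Amacrine- or horizontal-like, photoreceptor-like and lens-like cells had 46.9 to 56.8 CPM with overlapping intervals.

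The genotypes differed in *Crabp2* in progenitor and pigment epithelium-like cells. In naïve-like cells it was at 121 CPM (116 to 125) in DKO, a log2 ratio of -0.83 (-0.89 to -0.77), and the thinned share of cells with a UMI was 33.8% in control and 23.0% in DKO. The ratio was -0.58 (-0.75 to -0.42) in neurogenic-like cells, with 83.5 and 55.7 CPM, and -0.61 (-0.73 to -0.49) in pigment epithelium-like cells, with 185 and 122 CPM. In the other 6 classes the interval spanned 0, and in ganglion-like cells it ran from -0.24 to 0.06. In DKO, naïve-like and pigment epithelium-like cells no longer differed beyond their intervals.

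Since *Six3* was removed in some DKO cells and kept in others, a second clustering took DKO cells by themselves, again with the 5 genes kept out, and naïve-like cells were divided by the *Six3* level of their subcluster. Subclusters with *Six3* under 50% of its control naïve-like level held 1329 of the 3119 DKO naïve-like cells (42.6%). *Six3* was at 117 CPM in these and at 341 CPM in the other 1790. The 2 groups are cells of 1 library and not replicates. For the other classes the cut was 50% of the class's own control level (317 CPM in neurogenic-like and 750 CPM in ganglion-like cells). No subcluster mainly of neurogenic-like or ganglion-like cells was under its cut, and their lowest *Six3* levels were 169 and 438 CPM. The 29 and 86 Six3-low cells of these classes thus sat in subclusters mainly of other cells. Their ratios do not describe these classes without *Six3*.

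*Fabp7* was at 281 CPM (272 to 290) in Six3-low cells and at 15.5 CPM (13.547 to 17.6) in the other DKO cells, against 1.65 CPM in control. Its log2 ratio over control was therefore 7.41 (7.04 to 7.81) in the former and 3.23 (2.82 to 3.67) in the latter. Of the 118 DKO naïve-like cells with 10 or more *Fabp7* UMIs, 113 were Six3-low.

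The retinoic acid binding proteins went the other way. *Crabp1* was at 31.2 CPM (28.2 to 34.4) in Six3-low cells and at 103 CPM (98.0 to 108) in the other DKO cells, log2 ratios of -1.89 (-2.04 to -1.74) and -0.16 (-0.25 to -0.08) over control. *Crabp2* was at 84.8 CPM (79.8 to 89.98) and 151 CPM (145 to 158), ratios of -1.34 (-1.43 to -1.25) and -0.50 (-0.57 to -0.43). In both pairs the intervals of the Six3-low and the other cells were apart. The other cells were a mix, and included a subcluster with *Six3* at 60.9% of the control level and *Crabp1* at 29.8 CPM.

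The naïve-like class itself differed in its markers between these cells. The 8 naïve markers summed to 2326 CPM in Six3-low cells against 4885 CPM in control, a log2 ratio of -1.07, and 5 of the 8 were at least 2-fold lower. Ganglion markers summed to 137 CPM in Six3-low cells against 81.3 CPM in control, pigment epithelium markers to 39.9 against 16.9 CPM and ciliary margin markers to 314 against 217 CPM. The part of these shifts in the differences of *Fabp7*, *Crabp1* and *Crabp2* was not tested.

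*Fabp3* was lower in Six3-low cells than in the other DKO cells, and *Fabp5* a little higher. *Fabp3* was at 13.8 CPM (11.8 to 15.95) in Six3-low cells, where the interval of its ratio (-0.01 to 0.50) spanned 0, and at 28.5 CPM (25.9 to 31.4) in the other DKO cells, a ratio of 1.30 (1.10 to 1.497). *Fabp5* was at 963 CPM (946 to 980) and 883 CPM (868 to 898), ratios of 0.15 (0.12 to 0.18) and 0.028 (-0.0019 to 0.057) over control, and the intervals of the levels were apart. The other cells included a subcluster with *Six3* at 60.9% of the control level, where *Fabp3* was at 57.8 and *Fabp5* at 728 CPM. Naïve-like subclusters with *Six3* at 109% and 183% had *Fabp3* at 12.9 and 3.54 CPM, against 12.3 and 5.27 CPM in those at 37.4% and 47.8%.

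**Figure D3:**
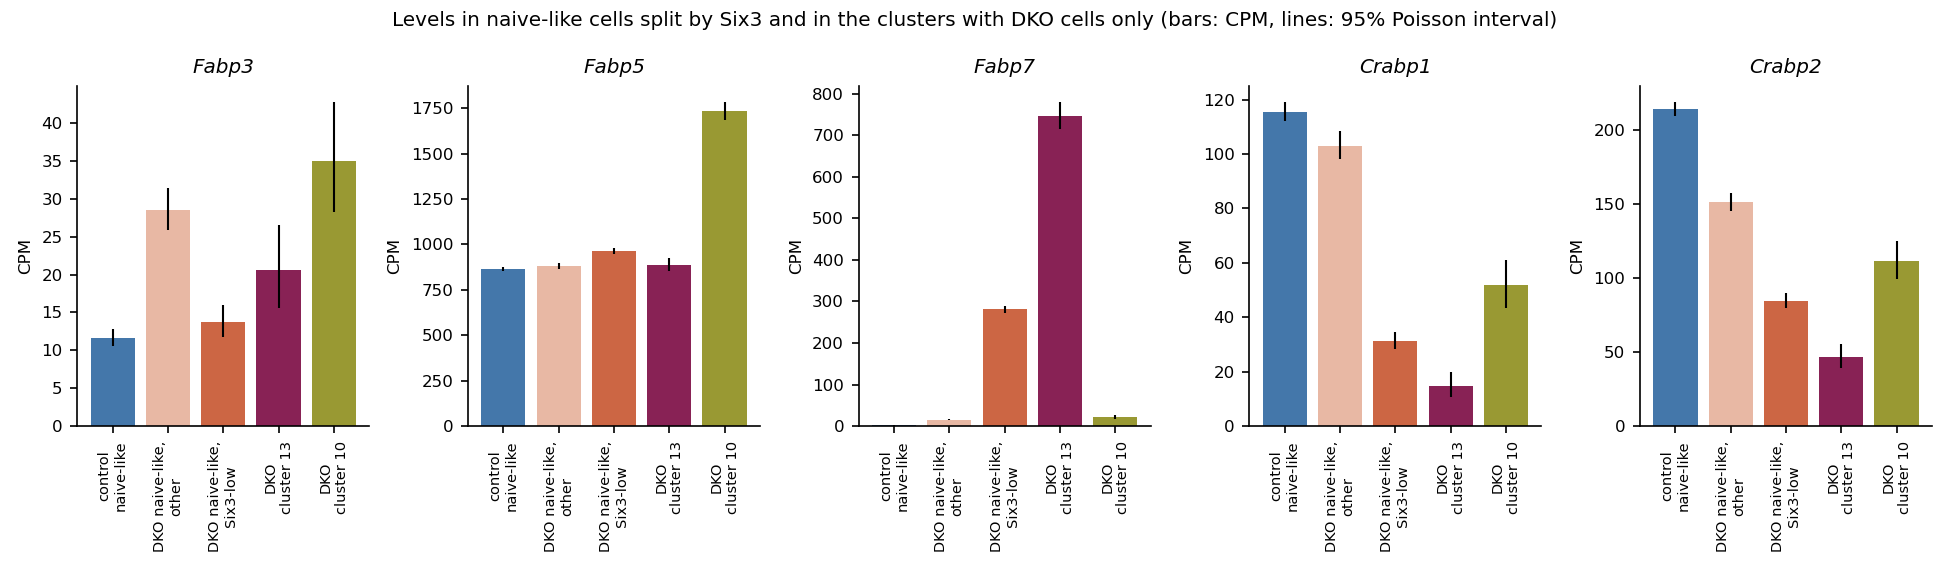
Level in CPM (vertical axis, from 0) of each gene (panels) in control naïve-like cells, in DKO naïve-like cells of subclusters with *Six3* at or above and under 50% of the control level, and in clusters 13 and 10, which held DKO cells only. Bars are summed levels of 1 library and lines the 95% Poisson interval. *Fabp7* runs from 1.65 CPM in control to 281 CPM in Six3-low cells and 747 CPM in cluster 13, and *Crabp1* from 115 to 31.2 and 14.6 CPM.

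Cells of the DKO naïve-like class, which joins Six3-low and other subclusters, showed the same pairing. With cells thinned to 2000 UMIs, 294 DKO naïve-like cells had a *Fabp7* UMI and 2782 had none. *Crabp1* was seen in 2.72% (1.18% to 5.29%) of the former and 13.4% (12.1% to 14.7%) of the latter, *Crabp2* in 12.9% (9.31% to 17.3%) and 24.01% (22.4% to 25.6%), and *Six3* in 18.0% (13.8% to 22.9%) and 38.2% (36.4% to 40.1%). *Fabp5* was seen in 78.9% and 81.3% and *Six6* in 7.48% and 8.70%, with overlapping intervals.

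The DKO cells fell into 28 subclusters. In progenitor cells *Fabp7* was higher where *Six3* was lower. It was at 331 and 263 CPM in 2 subclusters mainly of naïve-like cells with *Six3* at 37.4% and 47.8% of the control level, and at 439 CPM in a mix of cluster 13 and other cells at 32.0%. It was at 8.89 and 2.71 CPM in naïve-like subclusters with *Six3* at 109% and 183%. The subcluster of photoreceptor-like cells, with *Six3* at 152%, had *Fabp7* at 278 CPM as well. Over the 5 subclusters mainly of naïve-like cells, which share a library, Pearson's r with *Six3* on a log scale was -0.92 for *Fabp7*, 0.95 for *Crabp1*, 0.96 for *Crabp2*, -0.31 for *Fabp3* and 0.09 for *Fabp5*. These describe 5 points only.

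*Fabp3* differed between the pigment epithelium-like subclusters with low and higher *Six3*. It was at 216 CPM in the subcluster with *Six3* at 23.7% of the control naïve-like level and at 68.2 CPM in the one at 106%, near the 58.8 CPM of control. Of 227 DKO pigment epithelium-like cells with a *Fabp3* UMI after thinning, 11.9% (7.98% to 16.8%) had a *Six3* UMI, against 26.8% (23.6% to 30.0%) of the 770 without. In control the shares were 29.3% (18.1% to 42.7%) and 36.0% (32.3% to 39.9%), with overlapping intervals. The part of cell type in these differences was not tested.

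**Figure D4:**
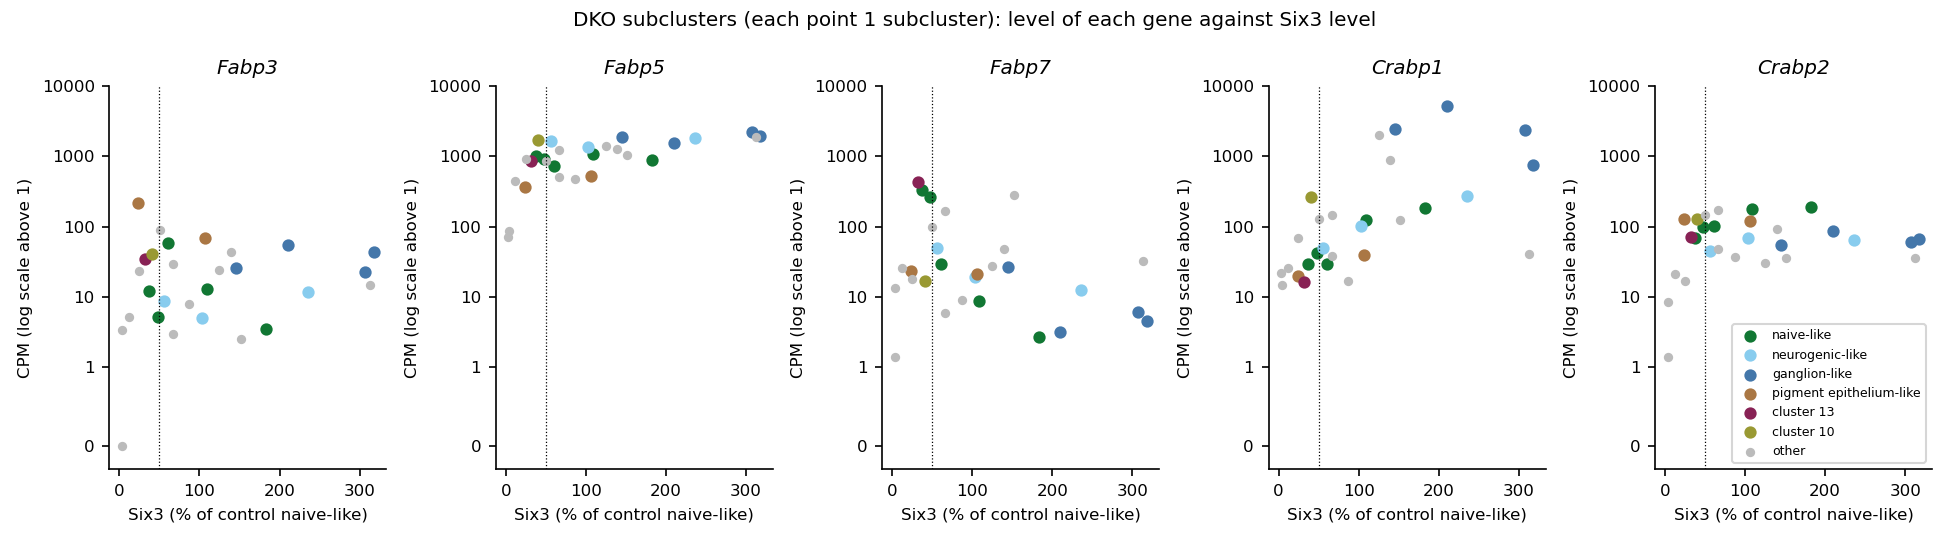
Level in CPM (vertical axis, log scale above 1) of each gene (panels) against the *Six3* level in percent of control naïve-like cells (horizontal axis), with 1 point per DKO subcluster, coloured by the class that most of its cells belong to. The dotted line is at 50%. Left of the line, naïve-like subclusters and the one led by cluster 13 have *Fabp7* at 263 to 439 CPM, a range that the photoreceptor-like subcluster right of the line (278 CPM) also reaches, and the pigment epithelium-like subcluster has the highest *Fabp3* (216 CPM).

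Clusters 13 and 10, which held no control cells, differed from each other in these genes. Cluster 13 had *Fabp7* at 747 CPM and *Crabp1* and *Crabp2* at 14.6 and 46.7 CPM, with *Six3* at 96.1 and *Six6* at 23.7 CPM. *Fabp7* was seen in 43.0% (38.3% to 47.8%) of its cells after thinning and in 57.3% without. It led this cluster's genes by fold, though it was kept out of the clustering, with *Sox21* and *Pantr1* next. The 8 naïve markers summed to 1563 CPM there, against 4885 CPM in control naïve-like cells.

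Cluster 10 had *Six3* at 95.2 CPM as well, but *Fabp7* at 21.2 CPM. Its *Fabp5* level of 1733 CPM lay in the range of the neuronal classes, its *Crabp2* level was 112 CPM and its *Crabp1* level 51.7 CPM. Ganglion markers summed to 4757 CPM in cluster 10, against 81.3 CPM in control naïve-like and 16946 CPM in control ganglion-like cells. Amacrine or horizontal markers summed to 528 CPM in it, against 63.2 CPM in control naïve-like cells. *Tbr1*, *Rspo3*, *Lhx9* and *Eomes* led its genes by fold, and the cluster was not named. A low *Six3* level therefore went with a high *Fabp7* level in naïve-like cells and cluster 13 but not in cluster 10, nor in the pigment epithelium-like subcluster of 581 cells with *Six3* at 23.7%, where *Fabp7* was at 23.8 CPM.

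Other genes of fatty acid and retinoid handling were few at the levels counted. In naïve-like cells 2 of 6 retinoic acid receptors had enough UMIs to be counted, *Rara* at 31.8 and 34.0 CPM and *Rxrb* at 23.5 and 24.7 CPM, and of the fatty acid receptors of the PPAR family 0 of 3.

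Of 12 genes of retinoic acid synthesis, uptake and breakdown, 5 were counted and *Cyp26a1*, the enzyme that degrades retinoic acid, was the 1 past 2-fold, at 45.9 CPM in control and 17.3 CPM in DKO (log2 -1.41, -1.56 to -1.26). *Aldh1a1*, the dorsal retinaldehyde dehydrogenase, was at 698 and 1286 CPM (log2 0.88, 0.86 to 0.91), and *Aldh1a3*, the ventral one, at 98.6 and 78.5 CPM (log2 -0.33, -0.41 to -0.25). The retinol dehydrogenase genes *Rdh10* and *Rdh11* were at 79.7 and 88.7 CPM and at 20.2 CPM in both libraries. The median over the list was near 0.

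None of the 11 counted genes of fatty acid uptake, synthesis and breakdown (1 of 13, 6 of 11 and 4 of 9 listed) passed 2-fold in naïve-like cells. The farthest was *Scd2*, a desaturase, at 346 and 474 CPM (log2 0.45, 0.42 to 0.49), followed by *Acadl*, which breaks down long-chain fatty acids, at 37.6 and 49.7 CPM (log2 0.40, 0.29 to 0.51). In pigment epithelium-like cells the receptor gene *Rarb* was past 2-fold, at 9.30 and 22.6 CPM (log2 1.28, 0.86 to 1.71), 1 of 3 receptors counted there. *Rarb* was counted through its DKO level alone, as its control level was under the 20 CPM needed.

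The pattern of each member was set against 5914 genes by Pearson's r of log2(CPM + 10), as a description of clusters of 1 library. The clusters used were the 19 with at least 50 control cells. They include clusters 2, 14, 15, 16 and 20, which joined no class for few UMIs or many doublets. Closest to *Fabp7* were *Neurod4* (0.95), *Slc1a2* (0.95), *Cplx3* (0.94), *Ankrd33b* (0.91) and *Zrsr1* (0.90). *Fabp7* itself was at 157 CPM in the photoreceptor-like cluster and at 38.8 CPM or less in the others. Closest to *Fabp3* were *Ociad2* (0.79), *Rab38* (0.78), *Grem1* (0.77), *Trpm1* (0.74) and *Pmel* (0.74). *Neurod4*, *Trpm1* and *Pmel* are among the markers that named the classes.

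*Fabp5* was closest to *Cfl1*, *Basp1*, *Rab2a*, *Mob4* and *Eef1e1* (each 0.98) and *Crabp1* to *Olfm2* (0.89), *Erc2*, *Gnaz*, *Nrn1* and *Snap91* (each 0.88). Among the genes closest to *Crabp2* were *Khdrbs3* (0.96), *Eno1* (0.95), *Zcchc3* (0.95) and *Nr2f1* (0.94). Among the members themselves r ran from -0.22 for *Fabp3* and *Fabp7* to 0.61 for *Fabp5* and *Crabp1*, so no member was among the 5 closest genes of another.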

How the data were processed

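The authors aligned the 10x Genomics 3′ reads to mm10 with Cell Ranger 3.1.0 and deposited, per library, UMI counts per gene and cell without normalization. The cell filters followed the study's methods (over 200 genes, below 6000 genes, mitochondrial UMIs below 20%). The libraries were integrated by anchors with Seurat 5.3.0 in R 4.3.3 (2000 variable genes, 20 dimensions, resolution 0.5). The members, the genes of the pathway lists and other genes, 87 in all, were kept out of the clustering.

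Clusters were named where at least 3 markers of a class were detected and 75% of them were above the other cells. Clusters with more than 50% doublets (16 and 20), or with median UMIs under 1/3 of the library's median (2, 14 and 15), joined no class, and these last rules were set after the clusters had been seen. Cluster 21 (4 control cells) had too few cells for a ratio. Scrublet (scanpy 1.11.5) gave each cell a doublet score. Its own thresholds were 0.635 for control and 0.225 for DKO, and the lower was used for both, which called 300 control and 329 DKO cells. They were kept, and left out in an alternative.

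Sums of UMIs per class were scaled to CPM. Exact Poisson, binomial split and exact binomial intervals at 95% (Python 3.11.15, scipy 1.17.1, numpy 2.4.6, pandas 2.3.3) cover counting error only. A level of 0 UMIs was given the floor of 3 UMIs. Genes with at least 100 UMIs over both libraries and 20 CPM in either were counted for the 2-fold background. A gene could thus be counted through the library where it was higher. The intervals were tested on simulated data with known changes. These were independent Poisson counts, the assumption behind the intervals, so the test does not cover UMIs gathered in few cells. Coding sequences were aligned with Biopython 1.88 and gene ends searched with BLAST 2.17.0, and figures were drawn with matplotlib 3.10.9.

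With 1 library per genotype no test was made and no p-value computed. The members, lists and rules were chosen with earlier results of these data known. The members were named in every class, list genes where past 2-fold in naïve-like cells, and for each member the 5 genes closest to it over control clusters. The remaining list genes in the text were picked with their values known. The alternatives were other clusterings, cell filters, scalings, a pseudocount, Six3-low DKO cells and, added after the data had been seen, cluster 13 joined to the naïve-like cells. The study's bulk RNA-seq and in situ data were not analysed here. The protein sequences were not used here. Some items are not reported here.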

Additional observations from a re-analysis of the deposited data

Results flagged for a closer look

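*Crabp1* lay on different sides of 0 in different classes, beyond counting error, and the difference between classes was not tested. Its log2 ratio of DKO over control was -0.72 in naïve-like cells, against 1.24 in neurogenic-like, 0.30 in ganglion-like, 0.87 in photoreceptor-like, 0.68 in lens-like, 2.04 in macrophage-like and 1.85 in red blood-like cells. The last 3 classes had 4.46 to 16.6 CPM in control and 15.95 to 68.3 CPM in DKO, low levels beside the 2586 CPM of DKO ganglion-like cells. In lens-like cells 1 DKO cell had 22 of the 51 UMIs, and without doublets the ratio turned to -0.17. Merging without integration turned it to 0.16 in naïve-like, -0.21 in ganglion-like and -0.93 in photoreceptor-like cells, and Six3-low DKO cells gave -0.29 in neurogenic-like and -0.73 in ganglion-like cells. These Six3-low cells sat in subclusters mainly of other cells. The *Crabp1* level over all kept cells was 299 CPM in control and 567 CPM in DKO.

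*Fabp5* also had ratios on both sides of 0, all within 2-fold, and this difference was not tested either. The ratio was 0.087 in naïve-like and 0.12 in neurogenic-like cells (-0.43 with Six3-low DKO cells), against -0.21 in ganglion-like, -0.11 in amacrine- or horizontal-like, -0.17 in photoreceptor-like, -0.55 in pigment epithelium-like (1.43 merged without integration) and -0.23 in macrophage-like cells. The merged class held 38 control and 1409 DKO cells, and the Six3-low neurogenic-like cells sat in subclusters mainly of other cells.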

How the results depend on the processing

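All values are log2 ratios of DKO over control, and no cause of a change was tested. In naïve-like cells *Fabp7* kept its direction throughout, and 30 of the 55 alternative values for the 5 genes stayed within the counting interval. Resolution 1 gave 4.41 for *Fabp7*, -0.27 for *Crabp1*, -0.54 for *Crabp2*, 0.13 for *Fabp5* and, with the direction turned, -0.033 for *Fabp3*. Resolution 0.3 gave 6.83 for *Fabp7*, -0.94 for *Crabp2*, 1.14 for *Fabp3* and 0.14 for *Fabp5*. Merging without integration gave 2.01 for *Fabp7*, -0.35 for *Crabp2*, 0.081 for *Fabp3* and, turned, 0.16 for *Crabp1*, and there 1162 DKO cells and 1 control cell formed a cluster led by *Fabp7* outside the naïve-like class. The mean per 10000 plus 1 gave 1.26 for *Fabp7*, -0.32 for *Crabp1*, -0.46 for *Crabp2* and 0.10 for *Fabp3*. Six3-low DKO cells gave 7.41 for *Fabp7*, -1.89 for *Crabp1*, -1.34 for *Crabp2*, 0.25 for *Fabp3* and 0.15 for *Fabp5*. Cluster 13 joined to the naïve-like cells gave 6.89 for *Fabp7*, -0.84 for *Crabp1* and -0.91 for *Crabp2*.

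In the other classes 284 of 360 values stayed within the interval and 10 turned. With Six3-low DKO cells these were *Crabp1* in ganglion-like (-0.73) and neurogenic-like cells (-0.29), *Fabp7* in ganglion-like cells (-0.32) and *Fabp5* in neurogenic-like cells (-0.43), from 29 neurogenic-like and 86 ganglion-like DKO cells. These cells sat in subclusters mainly of other cells. Merging without integration turned *Crabp1* in ganglion-like (-0.21) and photoreceptor-like cells (-0.93) and *Fabp3* (-1.70) and *Fabp5* (1.43) in pigment epithelium-like cells. The merged pigment epithelium-like class held 38 control and 1409 DKO cells. Without doublets *Crabp1* was at -0.17 in lens-like cells, and by the mean per 10000 *Fabp5* was at 0.029 in macrophage-like cells. Six3-low DKO cells gave no value for 5 classes, nor did at least 1000 genes for red blood-like cells. No paired analysis was possible because there was only 1 control and 1 DKO library. Shallower DKO cells limit the shares of cells, which were therefore thinned.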

Other observations

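Clusters of few UMIs, which joined no class, also held the members. Cluster 2, left unnamed with medians of 1043 control and 976 DKO UMIs per cell, had *Fabp7* at 5.15 CPM (2.07 to 10.6) in control and 144 CPM (125 to 165) in DKO. *Crabp2* was at 258 and 166 CPM there, a log2 ratio of -0.64 (-0.88 to -0.40), and *Crabp1* at 170 and 148 CPM with an interval from -0.48 to 0.07. Cluster 14, also of few UMIs, had *Crabp1* at 1036 CPM (943 to 1137) in control and 2011 CPM (1899.8 to 2127) in DKO.

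Cell cycle phases were assigned to naïve-like cells from thinned counts. *Fabp7* was at 74.9 CPM in 235 DKO cells assigned to G1, 104 CPM in 1608 assigned to S and 181 CPM in 1233 assigned to G2M, and at 1.39, 2.12 and 1.26 CPM in control. Each DKO phase was above each control phase. *Crabp1* was lower in DKO than in control in each phase, with 26.4 against 119 CPM in G1, 86.6 against 138 CPM in S and 58.4 against 89.7 CPM in G2M.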
